A study of Mus musculus with 48 samples.

Results

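The comparison described here set the tibialis anterior muscle at 08:00 against the same muscle at 20:00. Tibialis anterior is a fast limb muscle of the lower leg. The 16 libraries were chosen by their labelled time alone: 8 libraries from 08:00 and 8 from 20:00, of 48 in the series. Each library came from a separate male mouse of 39 to 55 weeks by the labels. The sources conflict on age, since the text of the study elsewhere describes the sequenced mice as younger. At each time there were 2 WT control, 2 WT KPC, 2 FoxP1SkmKO control and 2 FoxP1SkmKO KPC mice, which are called the 4 sets below. KPC mice carried an orthotopic pancreatic tumor grown from murine KPC pancreatic cancer cells, and control mice received an injection of sterile saline into the pancreas. FoxP1SkmKO mice were homozygous for a floxed Foxp1 allele and carried ACTA1-Cre, which is active in skeletal muscle fibers and leaves the other cells of the muscle with the allele. For the WT mice, the labels give C57BL/6J and the series record gives floxed mice without Cre. All mice had been entrained to a light cycle with lights on at 6 am and were then held in constant darkness, so that 08:00 was circadian time (CT) 26, early in the subjective day when mice rest, and 20:00 was CT38, early in the subjective night when mice become active.

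The muscle clock is a loop of transcription factors. BMAL1 (gene Arntl) pairs with CLOCK or NPAS2, binds E-boxes and switches on the Per, Cry, Nr1d1, Nr1d2 and Dbp genes. PER and CRY proteins then repress BMAL1 and CLOCK, and the REV-ERB receptors (Nr1d1, Nr1d2) and ROR receptors compete at a shared element to repress or activate Arntl and Npas2. DBP, TEF and HLF activate D-box genes, which NFIL3 represses. In muscle this clock is known to time genes of glucose and lipid use around the rest and active phases. The times compared are 12 h apart in a cycle of 24 h, so a gene that crosses its mean level at both times shows no difference even where it cycles strongly.

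Each library held between 14599024 and 19235435 counts in genes (medians 16884823 at 08:00 and 16216327 at 20:00). Muscle fiber markers were abundant at both times, with a summed level of 37100 to 45620 FPKM at 08:00 and 34500 to 42540 FPKM at 20:00 (FPKM: fragments per kilobase of gene, scaled to the size of the library). Foxp1 (ENSMUSG00000030067; chromosome 6 of mm39, 98902299 to 99499682) had 0.430 to 0.749 FPKM in the 8 WT libraries (median 0.560) and 0.419 to 0.642 FPKM in the 8 FoxP1SkmKO libraries (median 0.549). A count over the whole gene, in a tissue with other cells, did not separate the genotypes, and they are named here as labelled. Both WT control libraries of 08:00 stood apart from the rest: the correlation of log counts with gene length, relative to the mean library, was -0.220 and -0.181 in them and -0.122 to 0.111 in the other 14. The counts of the gene lists are therefore also given without the WT control set where they changed, and with the gene length trend removed where this moved a count by more than 1 gene.

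Of 14753 genes tested, 706 were higher at 20:00 (4.79%) and 853 were higher at 08:00 (5.78%), at an adjusted p under 0.05 from edgeR's quasi-likelihood test with the set as covariate. Most differences were small. The median fold was 1.30 among genes higher at 20:00 and 1.26 among genes higher at 08:00, and 60 and 33 genes respectively were called with at least a 2-fold difference. The direction was the same in all 4 sets for 646 of the 706 and 795 of the 853. Without the WT control set, 6 against 6, 395 genes were higher at 20:00 (2.71% of 14574) and 492 at 08:00 (3.38%), of which 349 and 418 had also been called with all sets. Without overlap between the FPKM of the 8 and 8 libraries, 131 genes stood higher at 20:00 (0.888%) and 139 at 08:00 (0.942%).

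The activating limb of the clock was higher at 08:00. Of 5 clock activators tested, Arntl, Clock and Npas2 were higher at 08:00, Rora was higher at 20:00, and Arntl2 did not pass the test; Rorb was too low to be tested. Arntl (ENSMUSG00000055116; chromosome 7, 112806672 to 112913333) had 2.14, 3.29 and 4.09 FPKM at 08:00 (lowest, median and highest of 8 libraries; values are given in this order throughout) and 0.940, 1.65 and 2.03 FPKM at 20:00. The lowest 08:00 library lay above the highest 20:00 library. Its log2 fold change, 20:00 over 08:00, was -1.03 (standard error 0.15, adjusted p = 1.27e-04), and it ran from -0.41 in FoxP1SkmKO KPC to -1.47 in WT control mice. Clock, the usual partner of BMAL1, had 1.76, 1.87 and 2.25 FPKM at 08:00 and 0.944, 1.47 and 1.73 FPKM at 20:00. These levels did not overlap either, by a narrow margin, with a log2 fold change of -0.48 (standard error 0.11, adjusted p = 0.00595). The size differed among the sets. Clock went from 2.25 and 2.00 to 1.02 and 0.944 FPKM in WT KPC mice. In FoxP1SkmKO control mice it went only from 1.76 and 1.92 to 1.62 and 1.69 FPKM. Npas2, the alternative partner, was a gene of low level, with 0.105, 0.324 and 0.572 FPKM at 08:00 and 0.0235, 0.0583 and 0.142 FPKM at 20:00. Its log2 fold change was -2.12 (standard error 0.35, adjusted p = 5.03e-04), a 4.36-fold higher level at 08:00, with 1 low FoxP1SkmKO control library at 08:00 inside the range of 20:00. Rora, which activates Arntl, went the other way, with 4.18 FPKM at 08:00 and 5.59 FPKM at 20:00 in the median (log2 fold change 0.36, standard error 0.07, adjusted p = 0.00237).

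**Figure D1:**
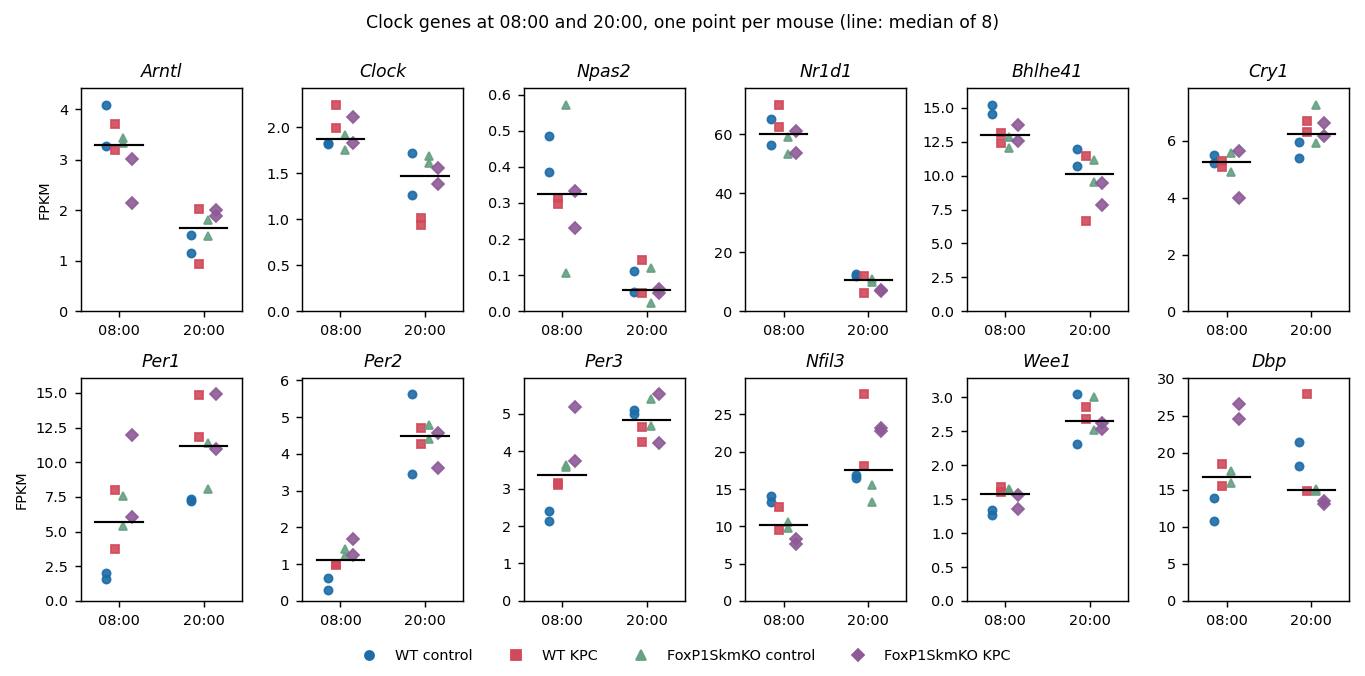
FPKM (linear axis from 0) of 12 clock genes at 08:00 and 20:00, with 1 point per mouse, colors and symbols for the 4 sets and a line at the median of 8 mice. Nr1d1 and Per2 are apart at the 2 times without overlap (53.2 to 70.0 against 6.07 to 12.6 FPKM, and 0.305 to 1.68 against 3.46 to 5.62 FPKM), whereas Dbp has medians of 16.7 and 14.98 FPKM.

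The repressing limb was split. Of 10 clock repressors, Per1, Per2, Per3, Cry1, Cry2 and Nr1d2 were higher at 20:00, Nr1d1, Bhlhe40 and Bhlhe41 were higher at 08:00, and Ciart did not pass the test; without the WT control set the counts were 4 and 3. Nr1d1 (REV-ERBα; ENSMUSG00000020889; chromosome 11, 98658758 to 98666159), the repressor of Arntl, had the largest fall of all genes named: it held 53.2, 59.96 and 70.0 FPKM at 08:00 and 6.07, 10.4 and 12.6 FPKM at 20:00. No library of either time came near the other group, and the log2 fold change was -2.65 (standard error 0.12, adjusted p = 5.05e-11), 6.27-fold higher at 08:00. The 4 sets gave -2.30 to -3.02. The 3′ end of Nr1d1 overlaps Thra on the opposite strand, and reads of overlapping genes could not be told apart where strand was not counted. The same holds for Bhlhe41, Cry2, Ciart, Dbp, Tspan4, Glul, Cebpb, Srebf1, Mrtfa, Cep85l and Cebpd. It also holds for Fbxo32, Asb2, Rubcn, Psma3, Gadd45a, Rapsn, Col4a1 and Col4a2. Each of these overlaps a tested gene on the opposite strand.

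The Per genes, which encode the repressors that accumulate over the subjective day, moved together toward 20:00. Per2 (ENSMUSG00000055866; chromosome 1, 91343704 to 91387046) rose from 0.305, 1.12 and 1.68 FPKM to 3.46, 4.49 and 5.62 FPKM. All libraries of 20:00 lay above all of 08:00, with a log2 fold change of 2.11 (standard error 0.19, adjusted p = 5.37e-07), which was 3.28 in WT control mice and 1.47 to 2.17 in the other sets. Per1 (chromosome 11, 68986043 to 69000786) had 1.55, 5.72 and 12.0 FPKM at 08:00 and 7.17, 11.2 and 14.9 FPKM at 20:00. Its groups overlapped, the WT control mice were lowest at both times, and the log2 fold change was 1.04 (standard error 0.20, adjusted p = 0.00221), or 0.76 without that set (adjusted p = 0.030). Per3 had medians of 3.37 and 4.83 FPKM and a log2 fold change of 0.56 (standard error 0.11, adjusted p = 0.00238).

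Cry1 and Cry2, the partners of the PER proteins, differed less. The log2 fold change of Cry1 was 0.28 (standard error 0.08, adjusted p = 0.0223), with medians of 5.26 and 6.24 FPKM, and the call was lost without FoxP1SkmKO control CT26 replicate 2 (adjusted p = 0.0540) or without FoxP1SkmKO control CT38 replicate 1 (adjusted p = 0.0607). Cry2 had a log2 fold change of 0.28 (standard error 0.08, adjusted p = 0.0331) and Nr1d2 (REV-ERBβ) one of 0.28 (standard error 0.08, adjusted p = 0.0207). Neither passed the test without the WT control set (adjusted p = 0.271 and 0.207). Cry2 also lost the call in 9 of the 16 fits that left out a single library, with an adjusted p of up to 0.0834, and Nr1d2 lost it without WT control CT26 replicate 2 (adjusted p = 0.0568). The basic helix-loop-helix repressors Bhlhe40 (DEC1) and Bhlhe41 (DEC2) were both higher at 08:00, by log2 fold changes of -0.43 (standard error 0.09, adjusted p = 0.00516) and -0.44 (standard error 0.09, adjusted p = 0.00238). Ciart, which represses CLOCK and BMAL1, had log2 fold changes of 0.79 in WT control and -1.56 in FoxP1SkmKO KPC mice and -0.45 over all (standard error 0.31, adjusted p = 0.367).

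Among 12 clock output factors, 7 were higher at 20:00 and 0 at 08:00 (0 also by DESeq2 and 0 at an unadjusted p under 0.05), beside 4.79% and 5.78% of all genes. These counts were 5 and 0 without the WT control set. Wee1, a cell cycle kinase, had 1.26, 1.58 and 1.68 FPKM at 08:00 and 2.31, 2.65 and 3.05 FPKM at 20:00. The groups were apart, and the log2 fold change was 0.84 (standard error 0.09, adjusted p = 3.19e-06), between 0.74 and 1.03 in the 4 sets. Usp2, a deubiquitinase, rose from a median of 31.0 to 46.6 FPKM without overlap (log2 fold change 0.60, standard error 0.08, adjusted p = 4.94e-05). Lonrf3, a RING finger gene of low level, rose from 0.157 to 0.486 FPKM in the median, also without overlap (1.55, standard error 0.27, adjusted p = 8.24e-04). Nfil3, the D-box repressor, had 7.67, 10.2 and 14.1 FPKM at 08:00 and 13.2, 17.5 and 27.7 FPKM at 20:00, with a log2 fold change of 0.83 (standard error 0.14, adjusted p = 5.29e-04). It was 1.53 in FoxP1SkmKO KPC and 1.05 in WT KPC mice, and 0.29 and 0.49 in the WT and FoxP1SkmKO control mice.

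Of the D-box activators, Hlf (log2 fold change 0.43, standard error 0.08, adjusted p = 0.00230) and Tef (0.22, standard error 0.05, adjusted p = 0.0115) were higher at 20:00, although Tef did not pass without the WT control set (adjusted p = 0.0852). Dbp did not differ by the test. It had 10.8, 16.7 and 26.6 FPKM at 08:00 and 13.02, 14.98 and 27.9 FPKM at 20:00, with a log2 fold change of -0.02 (standard error 0.17, adjusted p = 0.952). The sets went different ways, from 0.68 in WT control to -0.95 in FoxP1SkmKO KPC mice. Klf9, a glucocorticoid-responsive factor, was called (0.27, standard error 0.07, adjusted p = 0.0242) but not without the WT control set (adjusted p = 0.195), nor in 4 of the 16 fits without a single library (WT control CT26 replicate 2, WT control CT38 replicate 2, WT KPC CT38 replicate 2 and FoxP1SkmKO control CT38 replicate 1; adjusted p up to 0.0618). Klf15, Klf10, Por and Tspan4 did not pass the test, with log2 fold changes of -0.08 to 0.25.

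The letters that the clock factors are known to bind were looked for in the promoters of these genes, as a description. Windows of 500 bases before the start of the canonical transcript were read from GRCm39 with the GENCODE M39 annotation for 14705 of the 14753 genes. The motifs were the E-box CACGTG, the D-box TTATGNAA and the ROR and REV-ERB element TAGGTCA, each on both strands. Of 27 clock members, 10 held an E-box, 4 a D-box and 3 the ROR and REV-ERB element, and 11 held none of these letters, Arntl, Npas2 and Wee1 among them. The stretches below are those of E-box genes of opposite direction and of the Per, Cry and Dbp genes with the other motifs, on the gene's strand, with the motif in capitals and positions from GRCm39.
Nr1d1 E-box (chr11:98666512-98666535, 367 bases before the start): ttctccaatCACGTGaagctctca
Per1 E-box (chr11:68989237-68989260, 22 bases before the start): ccttaacgaCACGTGggccctcaa
Cry1 E-box (chr10:85020964-85020987, 29 bases before the start): gccggtggtCACGTGgggtgcatg
Usp2 E-box (chr9:43978151-43978174, 104 bases before the start): ctttttctcCACGTGgttctctgt
Nfil3 E-box (chr13:53135761-53135784, 408 bases before the start): ccacctctcCACGTGgtcggggac
Per2 D-box (chr1:91387155-91387180, 125 bases before the start): atgtgcgtcTTATGTAAagagagcga
Per3 D-box (chr4:151129311-151129336, 187 bases before the start): acccgcgcgTTATGTAAggtactcgg
Cry2 D-box (chr2:92264850-92264875, 392 bases before the start): tattcgtgtTTATGAAAtgaacgtta
Dbp ROR and REV-ERB element (chr7:45354314-45354338, 189 bases before the start): ggccaaataTAGGTCAgtgtcccgc

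The same E-box letters thus stood before Nr1d1, which was higher at 08:00, and before Per1, Cry1, Usp2 and Nfil3, which were higher at 20:00. Over all promoters, 11.3% held the E-box, 5.52% the D-box and 3.71% the ROR and REV-ERB element. The shares were 13.5%, 6.40% and 3.84% among genes higher at 20:00 and 10.9%, 4.47% and 3.41% among genes higher at 08:00. These shares are descriptions and were not tested. A match is a string of letters and not a measured binding site.

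The levels at all 6 times place the pair on the daily curve. Nr1d1 was at its highest median at 08:00 (59.96 FPKM) and its lowest at 20:00 (10.4 FPKM). Arntl was already past its highest median, which was 4.46 FPKM at CT22, and was at its lowest at CT34 (0.768 FPKM), before 20:00. Per2 rose from 0.831 FPKM at CT22 to 6.14 FPKM at CT34 and stood at 4.49 FPKM at 20:00. Dbp had a median of 42.2 FPKM at CT30, between the pair, and 4.65 FPKM at CT22, so that 08:00 and 20:00 lay on either side of its highest median. Of the 15 genes with the largest rise toward 20:00, 12 had their lowest median of the 6 times at 08:00, 8 had their highest at CT34 and 5 at 20:00. Of the 15 genes with the largest fall, 11 were lowest at 20:00, 7 were highest at CT22 and 6 at 08:00. This is a description of the medians, with no test. The genes with the largest rise and fall were chosen for their difference between 08:00 and 20:00. Lows and highs at or near these times therefore follow in large part from that choice.

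**Figure D2:**
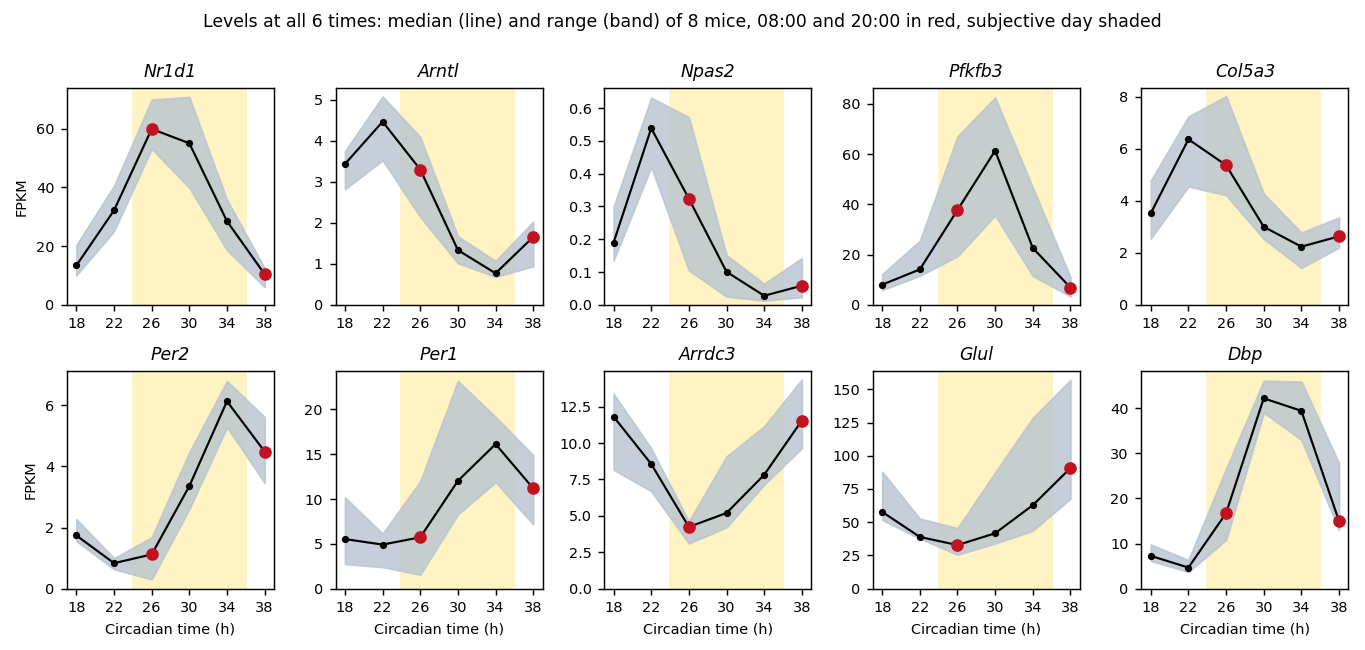
FPKM (linear axis from 0) against circadian time in hours for 10 genes, with the median (line) and the lowest to highest value (band) of 8 mice at each time, 08:00 (CT26) and 20:00 (CT38) in red and the subjective day shaded. The median of Nr1d1 falls from 59.96 to 10.4 FPKM between the red points, and Dbp has medians of 16.7 and 14.98 FPKM on either side of its high point of 42.2 FPKM at CT30.

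Outside the clock, Arrdc2, Arrdc3 and Glul were among the largest rises toward 20:00. The 15 protein-coding genes with the largest rise among those above a mean log2 CPM of 1, and alike in sign in the 4 sets, were Per2, Arrdc2, Cys1, Fam107a, Glul, Arrdc3, Map3k6, Cep85l, Nrip1, Fmo2, Mid1ip1, Cdc14a, Prima1, Rab27a and Hhipl1, and all 15 passed the test without the WT control set. The levels of 14 of them did not overlap between the times, with Rab27a the exception, beside 0.888% of all genes. The 15 were chosen for their difference in these same libraries, so neither count is independent of that choice. Arrdc2, which encodes an arrestin-domain adaptor, had 3.23, 5.94 and 11.1 FPKM at 08:00 and 12.9, 23.5 and 43.4 FPKM at 20:00. The groups were apart, and the log2 fold change was 1.85 (standard error 0.18, adjusted p = 1.59e-06), from 1.07 in FoxP1SkmKO control to 2.82 in WT KPC mice. Its relative Arrdc3, an adaptor for adrenergic receptors, went from 3.098, 4.23 and 4.62 FPKM to 9.64, 11.5 and 14.4 FPKM. This was a log2 fold change of 1.53 (standard error 0.09, adjusted p = 3.98e-09), with 1.26 to 1.93 in the 4 sets. Glul, glutamine synthetase, had 25.5, 32.7 and 45.5 FPKM at 08:00 and 67.6, 90.7 and 157 FPKM at 20:00, a log2 fold change of 1.60 (standard error 0.13, adjusted p = 1.80e-07). Mid1ip1, an activator of acetyl-CoA carboxylase, rose from a median of 10.9 to 25.4 FPKM (log2 fold change 1.33, standard error 0.09, adjusted p = 4.87e-08). Nrip1, a corepressor of nuclear receptors, rose from 1.64 to 4.14 FPKM (1.37, standard error 0.13, adjusted p = 1.25e-06).

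The largest falls were Nr1d1, Pfkfb3, Fam110b, Trp53i11, Auts2, Col5a3, Arntl, Arhgap24, Fam83d, Bcl6b, Relt, Mrtfa, Fbn1, Slc8a1 and Clmp. All but Clmp passed without the WT control set (adjusted p = 0.188 for Clmp). All but Fam83d and Clmp were without overlap, beside 0.942% of all genes. These genes too were chosen for their difference in the same libraries. Clmp also lost the call in 12 of the 16 fits without a single library, with an adjusted p of up to 0.135. Pfkfb3 (chromosome 2, 11476244 to 11558888), which makes the allosteric activator of phosphofructokinase, had 19.3, 37.7 and 67.03 FPKM at 08:00 and 3.35, 6.87 and 11.1 FPKM at 20:00. This was a log2 fold change of -2.36 (standard error 0.27, adjusted p = 8.58e-06), 5.12-fold higher at 08:00, and -1.49 in WT control and -3.56 in WT KPC mice. Trp53i11 had medians of 6.43 and 2.49 FPKM (log2 fold change -1.30, standard error 0.13, adjusted p = 1.25e-06). Mrtfa, a coactivator of serum response factor that follows actin, went from 9.62, 10.6 and 15 FPKM to 5.10, 5.63 and 6.22 FPKM. Its log2 fold change was -0.96 (standard error 0.08, adjusted p = 2.15e-07), with -0.83 to -1.25 in the sets. Fbn1, fibrillin, fell from a median of 1.78 to 0.923 FPKM (-0.95, standard error 0.13, adjusted p = 6.51e-05).

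**Figure D3:**
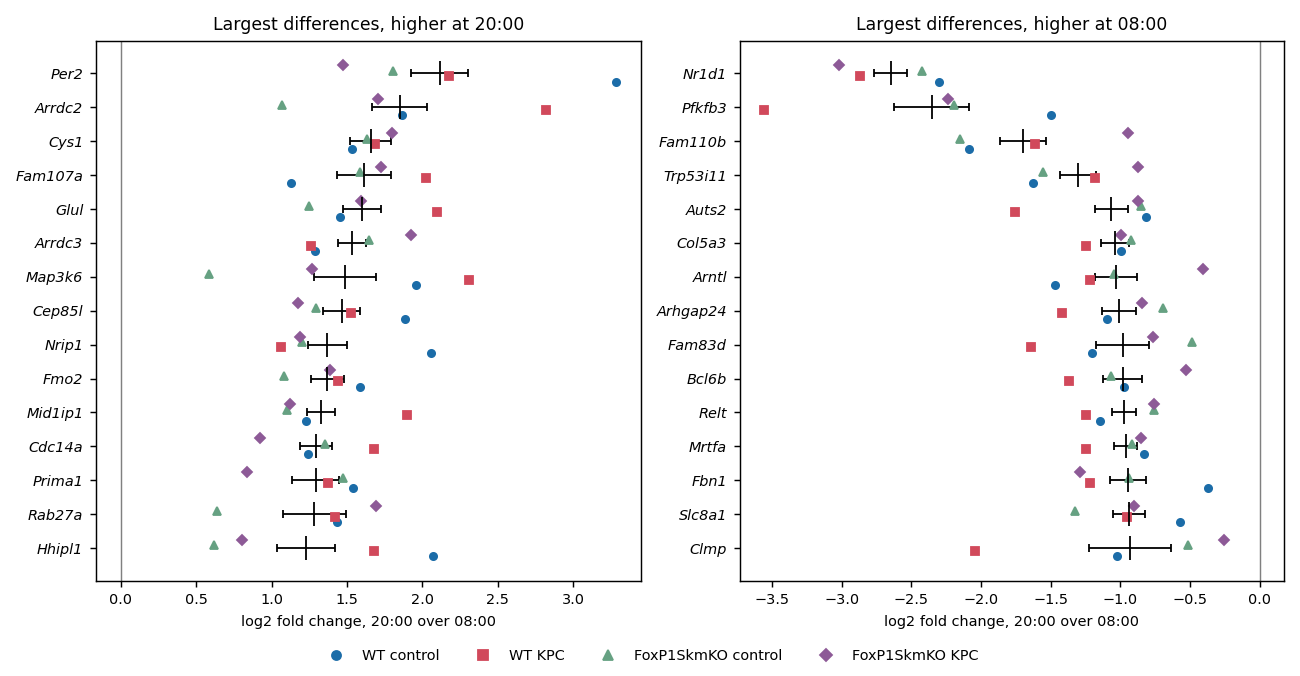
Log2 fold change, 20:00 over 08:00, of the 15 genes with the largest rise (left) and the 15 with the largest fall (right): black marks give the estimate over 16 libraries with its standard error, and colored symbols the estimate in each set of 2 against 2 mice. The symbols of the 4 sets lie on the same side of 0 for every gene, which the choice of genes required, and Per2 ranges from 1.47 to 3.28 among sets.

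Glucocorticoids are hormones known to be high in mice near the start of activity, and their part in the differences here was not tested. Of 24 genes that respond to them, 12 were higher at 20:00 (50.0%, beside 4.79% of all genes) and Fbxo32 was higher at 08:00. The median log2 fold change was 0.38, beside 0.003 over all genes. By set it was 0.32 in WT control, 0.57 in WT KPC, 0.10 in FoxP1SkmKO control and 0.50 in FoxP1SkmKO KPC mice. Without the WT control set the counts were 11 and 0, with 13 and 1 once the gene length trend was removed. Fkbp5, the cochaperone of the glucocorticoid receptor, and Tsc22d3 (GILZ) had log2 fold changes of 0.92 (standard error 0.13, adjusted p = 1.19e-04) and 0.48 (standard error 0.05, adjusted p = 6.42e-06). Zbtb16 (PLZF) had 7.01, 10.49 and 12.9 FPKM at 08:00 and 14.6, 21.5 and 25.7 FPKM at 20:00. It did not overlap between the times, and its log2 fold change of 1.06 (standard error 0.11, adjusted p = 2.17e-06) was 0.93 to 1.28 in the sets. Cebpb, a bZIP factor, rose from 18.3, 24.9 and 44.7 FPKM to 40.6, 51.4 and 86.0 FPKM (1.12, standard error 0.14, adjusted p = 2.33e-05), and its times overlapped. Members of the list that did not pass included Pdk4 (-0.01, standard error 0.14), Sgk1 (0.18, standard error 0.07) and Trim63 (-0.19, standard error 0.09). Per1, Klf9, Glul, Ddit4, Foxo1, Foxo3 and Fbxo32 also stand in other lists here.

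**Figure D4:**
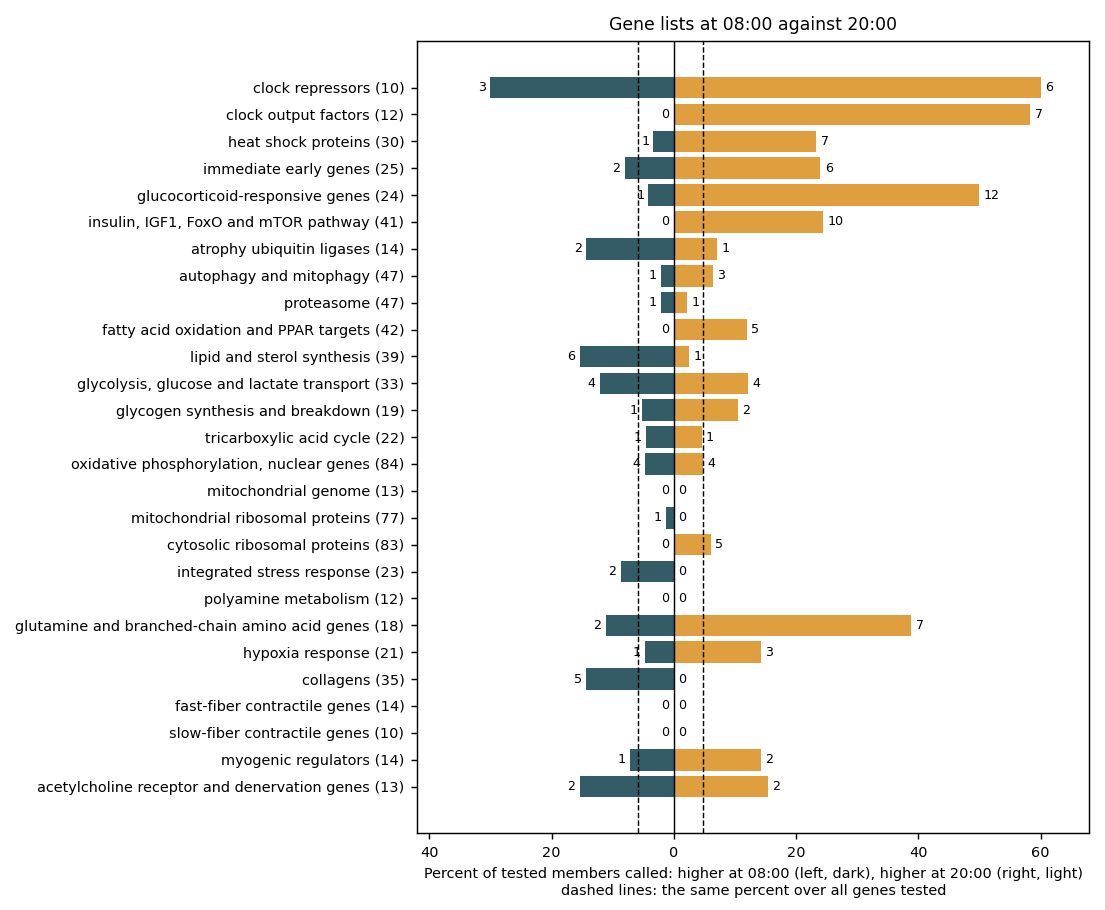
Percent of the tested members of the 27 gene lists with at least 10 tested members that were higher at 20:00 (to the right) or at 08:00 (to the left) at an adjusted p under 0.05, with the number called at each bar, the number tested in brackets and dashed lines at the percent over all genes (4.79 and 5.78). Glucocorticoid-responsive genes reach 50.0% on the right and collagens 14.3% on the left.

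Of 41 members of the insulin, IGF1, FoxO and mTOR list, 10 were higher at 20:00 and 0 at 08:00 (3 at an unadjusted p under 0.05 and 1 by DESeq2), with a median of 0.01. As shares, 24.4% and 0% stood beside 4.79% and 5.78% of all genes (2.71% and 3.38% without the WT control set). Without the WT control set the counts were 6 and 1, and with the gene length trend removed 7 and 2. Pik3r1, the regulatory subunit of phosphoinositide 3-kinase, had 2.21, 2.41 and 2.97 FPKM at 08:00 and 3.38, 5.75 and 7.14 FPKM at 20:00. The times were apart (log2 fold change 1.17, standard error 0.12, adjusted p = 2.17e-06). Foxo1, the forkhead factor that insulin restrains, rose from 1.78, 1.97 and 2.49 FPKM to 2.60, 3.32 and 4.34 FPKM (0.73, standard error 0.10, adjusted p = 4.94e-05). Tbc1d1, which governs the traffic of the glucose transporter GLUT4, rose from a median of 18.8 to 30.9 FPKM (0.64, standard error 0.09, adjusted p = 1.35e-04), without overlap. Ddit4, described further below for its dependence on the tumor, was called over all sets (0.86, standard error 0.25, adjusted p = 0.0334) but not without the WT control set (adjusted p = 0.0996) or in 9 of the 16 fits without a single library. GLUT4 itself (Slc2a4) had a log2 fold change of 0.00 (standard error 0.05), Irs1 of -0.03 (standard error 0.10) and Irs2 of -0.02 (standard error 0.15), none past the test.

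Of 18 genes of glutamine and branched-chain amino acids, 7 were higher at 20:00 and 2 at 08:00, while the median of the list was -0.04. The shares of 38.9% and 11.1% stood beside 4.79% and 5.78% of all genes. Without the WT control set the counts were 5 and 2, beside 2.71% and 3.38% of all genes. Slc7a8 (LAT2), a carrier of large neutral amino acids, had 2.32, 2.68 and 3.22 FPKM at 08:00 and 3.95, 4.84 and 6.47 FPKM at 20:00. All libraries of 20:00 were the higher ones, with a log2 fold change of 0.87 (standard error 0.09, adjusted p = 4.41e-06) and 0.69 to 0.96 in the sets. Slc1a5 (ASCT2), a glutamine carrier, was higher at 20:00 too (0.46, standard error 0.10, adjusted p = 0.00590). Slc38a4 (SNAT4) was lower at 20:00 (-0.64, standard error 0.12, adjusted p = 0.00221), from a median of 21.6 to 13.9 FPKM. Of 12 polyamine genes, 0 were called in either direction by edgeR or DESeq2, with 1 at an unadjusted p under 0.05.

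Of 39 genes of lipid and sterol synthesis, 6 were higher at 08:00 and Dgat2 was higher at 20:00 (4 and 1 without the WT control set), with a median of -0.05. Their shares of 15.4% and 2.56% stood beside 5.78% and 4.79% of all genes (3.38% and 2.71% without the WT control set). Srebf1, the master factor of fatty acid synthesis, had 14.1, 16.6 and 21.03 FPKM at 08:00 and 8.98, 10 and 12.1 FPKM at 20:00. The times were apart, with a log2 fold change of -0.70 (standard error 0.09, adjusted p = 2.48e-05), which was -0.25 in WT KPC mice and -0.71 to -0.94 in the other sets. Scd2, a stearoyl-CoA desaturase, was higher at 08:00 as well (-0.48, standard error 0.08, adjusted p = 6.64e-04). Dgat2, which makes triglyceride, rose from a median of 9.48 to 12.8 FPKM (0.44, standard error 0.08, adjusted p = 0.00147). Of 42 genes of fatty acid oxidation and PPAR targets, 5 (11.9%, beside 4.79% of all genes) were higher at 20:00 and 0 at 08:00 (4 at an unadjusted p under 0.05 and 2 by DESeq2), with 4 and 0 without the WT control set. Ppara, the receptor for fatty acids, had 0.733, 2.25 and 2.70 FPKM at 08:00 and 2.26, 3.55 and 4.62 FPKM at 20:00. Its log2 fold change of 0.86 (standard error 0.18, adjusted p = 0.00388) was 1.71 in WT control and 0.48 to 0.70 in the other sets. Cpt1b, the carnitine transferase of muscle (0.20, standard error 0.16), Ucp3 (-0.02, standard error 0.09) and Pdk4 did not pass.

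In carbohydrate use, genes were called in both directions. Of 33 genes of glycolysis and of glucose and lactate transport, 4 were called in each direction. This was 12.1% each, beside 4.79% higher at 20:00 and 5.78% at 08:00 over all genes. Without the WT control set the counts were 4 and 1, beside 2.71% and 3.38% of all genes. Hk2, the hexokinase of muscle, had 70.2, 72.6 and 78.6 FPKM at 08:00 and 81.5, 96.2 and 110 FPKM at 20:00. Its times were apart despite a small log2 fold change of 0.38 (standard error 0.05, adjusted p = 1.27e-04). Pfkfb4 was higher at 20:00 (0.37, standard error 0.06, adjusted p = 4.39e-04), opposite to its relative Pfkfb3. Of 19 glycogen genes, Ppp1r3c (0.57, standard error 0.14, adjusted p = 0.0106) and Ppp1r3a (0.33, standard error 0.08, adjusted p = 0.0105), targeting subunits of a glycogen phosphatase, were higher at 20:00, and Gaa was higher at 08:00 (-0.22, standard error 0.07, adjusted p = 0.0456). The counts were 1 and 1 without the WT control set. Ppp1r3a and Gaa did not pass without the WT control set (adjusted p = 0.113 and 0.129), and Gaa lost the call in 13 of the 16 fits without a single library.

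Calls among mitochondrial and ribosomal genes moved with the WT control set. Of 84 nuclear genes of oxidative phosphorylation, 4 were called in each direction (4.76% each). Of 22 genes of the tricarboxylic acid cycle, 1 was called in each (4.55% each). Over all genes, 4.79% were higher at 20:00 and 5.78% at 08:00, and 2.71% and 3.38% without the WT control set. Without the WT control set, oxidative phosphorylation had 7 genes higher at 20:00 and 0 at 08:00, and with the gene length trend removed 10 and 6. The cycle had 0 and 1 without the WT control set, and 4 and 1 with the gene length trend removed. None of 13 mitochondrially encoded genes was called by edgeR or by DESeq2 (2 at an unadjusted p under 0.05). Among 83 cytosolic ribosomal protein genes, 5 were higher at 20:00 (6.02%), led by Rpl22l1 (0.46, standard error 0.10, adjusted p = 0.00444). At 08:00, 0 were higher (3 at an unadjusted p under 0.05 and 0 by DESeq2). Without the WT control set 9 were higher at 20:00 and 0 at 08:00, and with the gene length trend removed the counts were 8 and 1. Among 77 mitochondrial ribosomal protein genes, only Mrpl4 was called (-0.26, standard error 0.06, adjusted p = 0.00996), and without the WT control set it did not pass (adjusted p = 0.105), whereas Mrpl13, Mrpl32 and Mrpl33 were higher at 20:00.

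Among proteolysis genes, 7.14% of atrophy ubiquitin ligases were higher at 20:00 and 14.3% at 08:00, beside 4.79% and 5.78% of all genes. These shares were 6.38% and 2.13% for autophagy genes, and 2.13% in each direction for proteasome genes. Of 14 atrophy ubiquitin ligases, Fbxo32 (atrogin-1) and Asb2 were higher at 08:00 and Ubr2 was higher at 20:00. Fbxo32 had 24.8, 36.4 and 63.5 FPKM at 08:00 and 13.7, 23.1 and 51.0 FPKM at 20:00, with wide overlap and a log2 fold change of -0.60 (standard error 0.18, adjusted p = 0.0403). It did not pass without the WT control set (adjusted p = 0.0996), by DESeq2 or in 11 of the 16 fits without a single library. Ubr2 (0.27, standard error 0.09, adjusted p = 0.0447) did not pass without the WT control set (adjusted p = 0.262) or in 10 of those 16 fits, which left Asb2 as the 1 gene of the list called without that set. Asb2 fell from a median of 351 to 263 FPKM (-0.40, standard error 0.07, adjusted p = 0.00128). Of 47 autophagy genes, 3 were higher at 20:00 and 1 at 08:00, whereas 1 and 2 were without the WT control set. Bnip3, a mitophagy receptor, had 31.6, 33.6 and 35.6 FPKM at 08:00 and 37.6, 41.2 and 46.1 FPKM at 20:00, without overlap (0.29, standard error 0.05, adjusted p = 9.31e-04). Rubcn, an inhibitor of autophagy, was lower at 20:00 (-0.30, standard error 0.06, adjusted p = 0.00453). Of 47 proteasome genes, Psma3 was higher at 20:00 (0.17, adjusted p = 0.0369) and Psmc4 at 08:00 (-0.15, adjusted p = 0.0467). They lost the call in 10 and 15 of the 16 fits without a single library and did not pass without the WT control set, where Psmg4 was called higher at 08:00 instead.

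Of 30 heat shock genes, 7 were higher at 20:00 and Hspb8 was higher at 08:00 (6 and 0 without the WT control set), with a median of 0.06. Their shares of 23.3% and 3.33% stood beside 4.79% and 5.78% of all genes (2.71% and 3.38% without the WT control set). Dnajb4, a cochaperone, had 4.80, 5.03 and 6.00 FPKM at 08:00 and 6.50, 7.55 and 8.79 FPKM at 20:00. The times were apart (0.57, standard error 0.07, adjusted p = 1.31e-05), with 0.49 to 0.69 in the sets. Dnajb1 (0.74, standard error 0.12, adjusted p = 5.00e-04) and Hspa1a (0.79, standard error 0.16, adjusted p = 0.00252) were higher too; Hspa1a and Hspa1b are near-identical, so reads may be split between them. The cold-inducible genes Cirbp (-0.08, standard error 0.09) and Rbm3 (0.09, standard error 0.11) did not pass. Of 25 immediate early genes, 6 were higher at 20:00 and 2 at 08:00 (4 and 1 without the WT control set). Egr1 was higher at 08:00, with medians of 2.25 and 1.24 FPKM (-0.82, standard error 0.13, adjusted p = 3.84e-04), and Klf6 at 20:00, with medians of 4.88 and 7.74 FPKM (0.66, standard error 0.10, adjusted p = 3.04e-04). Fos had a log2 fold change of 0.46 (standard error 0.17, adjusted p = 0.0947). In the integrated stress response list, 0 of 23 were higher at 20:00 (2 at an unadjusted p under 0.05 and 0 by DESeq2) and 2 (8.70%) were higher at 08:00 (1 without the WT control set), and Ppp1r15a (GADD34) of these did not overlap (-0.44, standard error 0.07, adjusted p = 2.86e-04).

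Collagens of the basement membrane were among the genes higher at 08:00. Of 35 collagen genes, 5 were higher at 08:00 (14.3%, beside 5.78% of all genes) and 0 at 20:00 (0 also by DESeq2 and at an unadjusted p under 0.05), with a median of -0.20. The median was 0.10 in WT control, -0.34 in WT KPC, -0.10 in FoxP1SkmKO control and -0.53 in FoxP1SkmKO KPC mice. Without the WT control set the count was 5 (beside 3.38% of all genes), with a median of -0.30, and with the gene length trend removed it was 8. Col4a1 and Col4a2, the chains of basement membrane collagen, lie head to head on chromosome 8 and overlap on opposite strands. Col4a2 had 21, 23.6 and 31.1 FPKM at 08:00 and 11.2, 13.7 and 15.2 FPKM at 20:00, and Col4a1 19.6, 23.2 and 32.9 against 12.1, 14.2 and 16.7 FPKM. Neither overlapped between the times, with log2 fold changes of -0.84 (standard error 0.07, adjusted p = 4.30e-07) and -0.75 (standard error 0.08, adjusted p = 7.73e-06). Col5a3 went from 4.22, 5.37 and 8.03 FPKM to 2.20, 2.64 and 3.36 FPKM (-1.04, standard error 0.10, adjusted p = 1.25e-06), and was -0.93 to -1.24 in the sets.

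Of 8 endothelial markers, 4 were higher at 08:00 with these collagens: Cldn5 (-0.88, standard error 0.15, adjusted p = 7.22e-04), Kdr (-0.64, standard error 0.09, adjusted p = 1.35e-04), Egfl7 (-0.31, standard error 0.06, adjusted p = 0.00191) and Cdh5 (-0.21, standard error 0.07, adjusted p = 0.0447). This was 50.0% of the list, beside 5.78% of all genes. The rest did not pass: Tie1 (-0.218, adjusted p = 0.0702), Emcn (-0.105, adjusted p = 0.599), Pecam1 (0.046, adjusted p = 0.754) and Tek (0.088, adjusted p = 0.515). The summed level of the 8 markers was 82.7 to 122 FPKM at 08:00 (median 108) and 82.8 to 95.0 FPKM at 20:00 (median 85.4), so the ranges overlapped. Fewer cells of a type and less RNA per cell cannot be told apart in whole muscle, and the part of endothelial cells in the collagen result was not tested. The 6 markers of fibro-adipogenic progenitors, Col1a1 and Col3a1 among them, had 0 called (0 also by DESeq2 and at an unadjusted p under 0.05) and summed levels of 28.8 to 66.6 and 22.9 to 71.0 FPKM. Csf1r, of 8 macrophage markers, was higher at 08:00 (-0.88, standard error 0.17, adjusted p = 0.00170), as were Hba-a1 and Hba-a2 of 5 erythroid markers, with summed erythroid levels of 153 to 330 FPKM at 08:00 and 113 to 223 FPKM at 20:00. The WT control libraries of 08:00 had 246 to 330 FPKM of these and the other 6 had 153 to 235 FPKM, and without the WT control set only Hba-a2 was called. Adipocyte, satellite cell, Schwann cell, smooth muscle, neutrophil and lymphocyte lists had 0 genes called by either tool, with 1 at an unadjusted p under 0.05 in each of the first 4.

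Of 14 fast-fiber and 10 slow-fiber genes, 0 were called by edgeR or DESeq2 (2 fast-fiber and 0 slow-fiber genes at an unadjusted p under 0.05), and Myh4, the main fast myosin of this muscle, had a log2 fold change of 0.00 (standard error 0.06). Myh7, the slow myosin, was called as higher at 08:00 once the WT control set was left out (-1.16, adjusted p = 0.0384). Acta1 and Des, from the fiber markers, were somewhat lower at 20:00 (-0.24, standard error 0.06, adjusted p = 0.0194; -0.22, standard error 0.07, adjusted p = 0.0377), and neither passed without the WT control set (adjusted p = 0.146 and 0.230). Of 14 myogenic regulators, Myod1 and Myog were higher at 20:00 and Eya1 was higher at 08:00 (3 and 1 without the WT control set). Their shares were 14.3% and 7.14%, beside 4.79% and 5.78% of all genes (2.71% and 3.38% without the WT control set). Myog lost the call in 12 of the 16 fits without a single library, with an adjusted p of up to 0.103. Myod1, the muscle determination factor known to be under clock control, had 19.5, 28.3 and 29.8 FPKM at 08:00 and 28.5, 39.0 and 45.5 FPKM at 20:00. Its log2 fold change of 0.58 (standard error 0.11, adjusted p = 0.00212) was 0.07 in WT control mice and 0.59 to 0.90 in the other sets, and 0.74 without WT control mice (adjusted p = 6.94e-04). Of 13 genes of the acetylcholine receptor and denervation, Gadd45a (0.57, standard error 0.09, adjusted p = 2.31e-04) and Dok7 (0.47, standard error 0.08, adjusted p = 9.78e-04) were higher at 20:00, and Hdac9 (-0.61, standard error 0.12, adjusted p = 0.00305) and Rapsn (-0.29, standard error 0.08, adjusted p = 0.0205) were higher at 08:00. Each direction held 15.4% of this list. Rapsn did not pass without the WT control set (adjusted p = 0.147), without WT control CT38 replicate 2 (adjusted p = 0.0554) or without FoxP1SkmKO control CT26 replicate 1 (adjusted p = 0.0524). Of 21 hypoxia genes, 3 were higher at 20:00 and Pfkfb3 at 08:00 (2 and 1 without the WT control set), and the glucose carrier gene Slc2a1 (GLUT1) was among the 3 (0.32, standard error 0.08, adjusted p = 0.0159, and 0.0994 without the WT control set). The hypoxia shares were 14.3% and 4.76%, the latter below the 5.78% of all genes.

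Whether the tumor changed the difference between the times was tested as an interaction. It was called for 227 of 14753 genes (1.54%), 102 with a difference more toward 20:00 in KPC mice and 125 more toward 08:00. This count rested on few libraries and on gene length. It was 33 once the length trend was removed, 209 within WT mice, 1 within FoxP1SkmKO mice (1350 at an unadjusted p under 0.05) and between 1 and 459 when a single library was left out, with 1 without WT control CT26 replicate 1 or without FoxP1SkmKO KPC CT26 replicate 2 and 459 without WT control CT26 replicate 2. The 125 genes had a median length of 9423 bases and the 102 one of 2192 bases, beside 4158 over all genes.

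Ddit4 (REDD1; chromosome 10, 59785491 to 59787656), an inhibitor of mTOR complex 1, had 3.33 and 4.09 FPKM in WT control mice at 08:00 and 6.32 and 5.68 FPKM at 20:00. In WT KPC mice it went from 3.16 and 4.92 FPKM to 14.6 and 17.0 FPKM. In FoxP1SkmKO control mice it went from 6.27 and 8.06 FPKM down to 3.69 and 5.10 FPKM, and in FoxP1SkmKO KPC mice from 6.67 and 5.75 FPKM up to 17.5 and 14.5 FPKM. All 4 KPC libraries of 20:00 were above the other 12. The difference between the times was larger by 1.67 on the log2 scale in KPC mice (standard error 0.21, adjusted p = 0.00364), by 1.27 within WT mice (adjusted p = 0.0425) and by 2.07 within FoxP1SkmKO mice (adjusted p = 0.0156), and the call held in 16 of 16 fits without a single library. Cebpd, an acute phase bZIP factor, showed the same form: 1.96 to 2.68 FPKM in the control libraries of 20:00 and 6.24 to 8.57 FPKM in the KPC libraries. The interaction was 1.41 (standard error 0.20, adjusted p = 0.0162), past the threshold in 14 of 16 fits without a single library (adjusted p up to 0.0809). The exceptions were the fits without WT control CT26 replicate 1 and without FoxP1SkmKO KPC CT26 replicate 2. The genes Nr1h3 (LXRα; 0.96, standard error 0.15, adjusted p = 0.0183), Atp5e (0.82, standard error 0.13, adjusted p = 0.0183) and Ly6e (0.77, standard error 0.12, adjusted p = 0.0214) followed. Nr1h3 was lower at 20:00 in both control sets (-0.57 and -0.55) and had 0.22 and 0.56 in the KPC sets. With the length trend removed all 5 stayed past the threshold (adjusted p between 0.00833 and 0.0290). Within FoxP1SkmKO mice alone Ddit4 was the exception, and the other 4 did not pass (adjusted p between 0.198 and 0.269). Within WT mice alone Nr1h3 (adjusted p = 0.0627) and Atp5e (adjusted p = 0.0582) did not pass either. Nr1h3, Atp5e and Ly6e lost the call in 3, 3 and 4 of the 16 fits without a single library, those being WT control CT26 replicate 1, FoxP1SkmKO control CT26 replicate 1, FoxP1SkmKO KPC CT26 replicate 2 and, for Ly6e, WT KPC CT26 replicate 1.

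**Figure D5:**
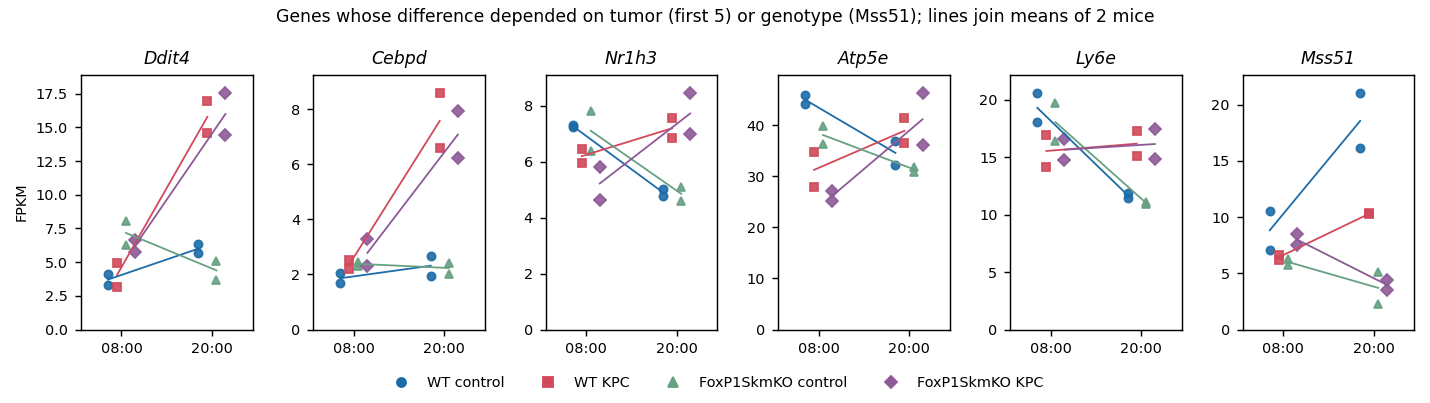
FPKM (linear axis from 0) at 08:00 and 20:00 of the 5 genes that led the interaction with tumor and of Mss51, which led the interaction with genotype, with 1 point per mouse and lines that join the means of 2 mice. Ddit4 is at 14.5 to 17.5 FPKM in the KPC libraries of 20:00, and Mss51 at 10.2 to 20.99 FPKM in the WT and 2.31 to 5.09 FPKM in the FoxP1SkmKO libraries of 20:00.

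Whether the FoxP1 deletion changed the difference was tested in the same way. It was called for 1 gene (0.00678%; 1132 at an unadjusted p under 0.05, and 16 by DESeq2). The gene was Mss51 (chromosome 14, 20532935 to 20546969), a mitochondrial protein of muscle that is known as a target of myostatin signaling. It had 7.08 and 10.6 FPKM in WT control mice at 08:00 and 20.99 and 16.1 FPKM at 20:00, and 6.66 and 6.20 against 10.3 and 10.2 FPKM in WT KPC mice. In FoxP1SkmKO mice it went the other way, from 5.71 and 6.31 to 5.09 and 2.31 FPKM in controls and from 8.52 and 7.49 to 4.36 and 3.55 FPKM with tumors. The 4 WT libraries of 20:00 were above the 4 FoxP1SkmKO libraries of 20:00. The interaction was -1.74 (standard error 0.25, adjusted p = 0.0295), and it passed the threshold in 8 of 16 fits without a single library (-1.51 to -2.07, adjusted p up to 0.176) and not with all 48 libraries in the fit (adjusted p = 0.234). Since the Foxp1 count did not separate the labelled genotypes, the direction by genotype rests on the labels.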

How the data were processed

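Tibialis anterior mRNA of 48 mice was sequenced, and the 16 libraries of 08:00 and 20:00 were compared here. The authors deposited whole-number read counts per gene, not normalized, in 12 tables (1 per genotype and time), and FPKM values of all libraries in 1 table. Fold changes and p-values of the authors in the count tables were not used. Per the paper's methods, reads were aligned with STAR and counted with HTSeq, whereas the submitters' processing notes name HISAT2 2.0.5 and DESeq2 1.20.0, so the aligner behind the deposited counts is not settled. FPKM, as deposited by the authors, divides these counts by gene length and library size. Whether counting used strand was not given in the sources used here, and 24 of 124 named genes overlap a tested gene on the opposite strand.

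Genes were filtered with filterByExpr over the 8 groups, scaled by TMM and fitted with edgeR 4.0.16 (R 4.3.3) quasi-likelihood models: the set and the time for the main comparison, and 8 group means for the sets and interactions. The Benjamini-Hochberg adjusted p was taken over all genes tested, with a threshold of 0.05. Log2 fold changes are 20:00 over 08:00. FPKM are given as description. DESeq2 1.42.0, RLE scaling, no filter, a removed gene length trend (lowess span 0.4), left-out libraries, left-out sets and a fit of all 48 libraries were alternatives. The code was tested on simulated data. Replicates of a group differed beyond sampling noise (chi-square per degree of freedom 5.93 to 11.4), and replicate numbers did not pair the mice, since deviations of same-numbered libraries correlated between -0.109 and 0.18 over 28 pairs of groups. The labels give mice, not litters or days, so p-values measure the spread between these mice.

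The named genes were Foxp1, all clock list members, the 15 protein-coding genes with the largest called rise and fall above a mean log2 CPM of 1 and alike in sign in the 4 sets, up to 4 called members of each other pathway list, and up to 5 genes per interaction; other list members and cell type markers are named as examples chosen after their values were seen. Some genes are not reported here. Members and lists were chosen with earlier results of these data known.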

Additional observations from a re-analysis of the deposited data

Results flagged for a closer look

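In 120 groups of 8 libraries, the clock, largest-difference and interaction genes at each time, 4 held a library far from the rest by Dixon's test at its 95% level, where chance alone sets apart about 1 in 20. FoxP1SkmKO KPC CT26 replicate 1 was low for Cry1 (3.997 FPKM), and FoxP1SkmKO control CT26 replicate 1 was high for Tspan4 (4.421 FPKM). WT KPC CT38 replicate 2 was low for Cys1 (1.092 FPKM), and WT KPC CT26 replicate 1 was high for Mrtfa (15 FPKM).

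The difference between the times itself differed with the tumor, by the interaction test, for Ddit4 (1.672 on the log2 scale), Cebpd (1.407), Nr1h3 (0.955), Atp5e (0.818) and Ly6e (0.771), each more toward 20:00 in KPC mice. It differed with genotype for Mss51 (-1.737), more toward 08:00 in FoxP1SkmKO mice.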

How the results depend on the processing

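The counts of genes higher at 20:00 and at 08:00 stayed within 1.5 times of 706 and 853 with no filter (872 and 924), RLE scaling (705 and 840), DESeq2 (818 and 983), the length trend removed (763 and 969) and the WT KPC set left out (752 and 786). They were 1355 and 1388 with all 48 libraries in the fit, 395 and 492 without WT control, 461 and 495 without FoxP1SkmKO control, 422 and 520 without FoxP1SkmKO KPC, 450 and 525 without WT control and with the length trend removed (an alternative chosen after seeing the data), and 60 and 33 at 2-fold or more. Leaving out a single library gave 518 to 891 and 626 to 914. The tumor interaction was called for 909 genes with no filter, 544 by DESeq2, 771 with all 48 libraries, 33 with the length trend removed, 1 within FoxP1SkmKO mice and 1 to 459 without a single library. The genotype interaction was called for 191, 16 and 4 genes with no filter, by DESeq2 and with all 48 libraries, and for 0 to 6 without a single library. With the replicate block the counts were 636, 779, 222 and 1; the numbers do not pair the mice. Of 112 called named genes, 91 stayed under the threshold in all 16 fits without a single library and 86 without WT control, and none changed direction. Genes that did not pass the test did change direction. Dbp was 0.024 without FoxP1SkmKO control, 0.010 with the length trend removed, 0.284 without FoxP1SkmKO KPC and -0.151 to 0.081 without a single library. Nr1h3 was 0.079 without WT control, 0.073 without FoxP1SkmKO control and 0.086 without WT control and the length trend. Atp5e was -0.005 without WT KPC, -0.118 without FoxP1SkmKO KPC and -0.011 to 0.137 without a single library. Mss51 was -0.322 without WT control, -0.139 without WT KPC, -0.330 without WT control and the length trend and -0.092 to 0.217 without a single library. The cause of these changes was not tested; fits without a set hold 12 libraries. Depth was similar in all libraries, and genes under 1 FPKM such as Npas2 rest on the fewest reads.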
